A study of Mus musculus with 8 samples.

Results

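The 41 genes described here encode the heat shock chaperone machinery of brown adipose tissue: 2 heat shock factors, 5 HSP70 family members, 5 nucleotide exchange factors (the HSP110 family and BAG proteins), 7 J-domain cochaperones, HSP90 and its cochaperones (9 genes), 4 small heat shock proteins, the HSP60 and HSP10 pair, and 7 subunits of the CCT chaperonin. They were selected by gene symbol, 41 of the 54532 genes in the expression table, and 1 gene model matched each symbol. HSP60 and HSP10 (Hspd1 and Hspe1) work in the mitochondrial matrix, so the set is not wholly cytosolic. The set was proposed with results of the same contrast already known, and the differences given for it are therefore a description and support no further claim. RNA was sequenced from the brown fat of 4 samples of wild-type mice (WT) and 4 samples of mice lacking the O-GlcNAc transferase OGT in brown adipocytes (OGTBKO). Per the labels, all mice, the controls included, lived at 23 °C on chow, were induced after 8 weeks, and gave tissue 2 months later. The sources used here do not give the driver of the knockout, the strain or the sex. Nothing in the labels says outright that each library is a different animal, so a p-value speaks only of the spread among these 8 libraries.

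A cell meets unfolded protein first with HSP70, which binds exposed hydrophobic stretches, is switched on by J-domain proteins and is emptied by nucleotide exchange factors such as HSP110. HSP90 takes over a set of clients, many of them kinases and steroid receptors, and its cochaperones set which client it holds and for how long. Small heat shock proteins hold unfolded protein without using ATP, and CCT folds actin and tubulin inside a closed ring. The heat shock factor HSF1 raises many of these genes together by binding heat shock elements, arrays of GAA and its complement TTC, and HSP70 and HSP90 in turn hold HSF1 inactive. OGT attaches a single sugar, N-acetylglucosamine, to serines and threonines of nuclear and cytosolic proteins, and chaperones are among its known substrates. Brown adipocytes burn fuel for heat through the uncoupling protein UCP1.

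Levels are in FPKM, which counts sequenced fragments per kilobase of gene, scaled by a factor for each library, so they can be compared between genes. The factor used in the deposited values is not the library's total reads. Values for several libraries are listed in the order of libraries 1 to 4 of a group. A difference is the mean log2(FPKM + 0.5) of OGTBKO minus that of WT with its standard error from limma, and a gene is called when its Benjamini-Hochberg adjusted p over the 13171 genes tested was under 0.05. Each call was recomputed under 19 alternatives, 8 of which leave out 1 library.

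The 8 libraries held between 13393962 and 15897920 reads in genes. Ogt itself (chrX:101640060-101684351) stood at 33.1, 24.7, 23.9 and 22.5 FPKM in WT and at 10.7, 14.5, 12.8 and 11.8 FPKM in OGTBKO, a log2 difference of -1.03 ± 0.14 (limma adjusted p = 0.00511; exact two-sided permutation p = 0.0286, the smallest that 4 against 4 allows). Over all genes tested 2050 were called, 982 lower and 1068 higher, or 15.6% of them. Brown adipocyte markers were abundant in every library, summing to between 3392 and 5192 FPKM in WT and between 3030 and 3812 FPKM in OGTBKO, ranges that overlap. Of these 8 markers 2 were called lower, the uncoupling protein gene Ucp1 (mean 2051 to 1006 FPKM, limma adjusted p = 0.0113) and the potassium channel gene Kcnk3 (log2 -0.83, adjusted p = 0.0110). The other 6 were not called. Log2 differences were below 0 for 5 of the 8 and above 0 for 3, with a median of -0.07. The largest by size was a rise, that of Elovl3 (log2 1.75, limma adjusted p = 0.111). The Ucp1 call was lost with scaling by total reads (adjusted p = 0.0516) and when lowly expressed genes were kept (adjusted p = 0.0763). Skeletal muscle markers summed to 659 FPKM in WT 1 and 1873 FPKM in OGTBKO 1, against 20.4 to 67.1 FPKM in the other 6 libraries. The 4 white adipocyte markers summed to between 51.4 and 123 FPKM in WT and between 155 and 202 FPKM in OGTBKO, with no overlap and 2 of the 4 called higher. Summed T and B lymphocyte markers reached at most 1.68 FPKM. What part these other cells play in the differences was not tested. In whole tissue, fewer cells of a type and less RNA per cell cannot be told apart.

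All 41 genes passed the filter on low values and were tested. In OGTBKO tissue 6 were called lower, namely Hsph1, Hspa8, Chordc1, Hsp90ab1, Ptges3 and Cct4, and 2 were called higher, Cdc37 and Hspa14. The remaining 33 were not called. Called genes made up 19.5% of the set beside 15.6% of all genes tested. By direction, 7.46% of all genes were called lower and 8.11% higher. The log2 difference was below 0 for 28 of the 41 and above 0 for 13, with a median of -0.08 beside -0.00 for all genes tested. WT and OGTBKO values did not overlap for 12 of the 41 genes, 9 with OGTBKO lower and 3 with OGTBKO higher, beside 22.5% of all genes. Because the selection used this contrast, nothing is read from these counts. The same shares are the background for the count of each role group below, and nothing is read from those counts either. Scaling each library by its total reads left 1 gene lower and 2 higher (Hsph1 lower, Cdc37 and Bag1 higher) and moved the median of the set to 0.01. The same scaling moved all genes nearly alike, to a median of 0.09 with 9.37% of them called, 250 lower and 987 higher. The gap between the set's median and that of all genes could therefore hardly change, and nothing is read from it.

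**Figure D1:**
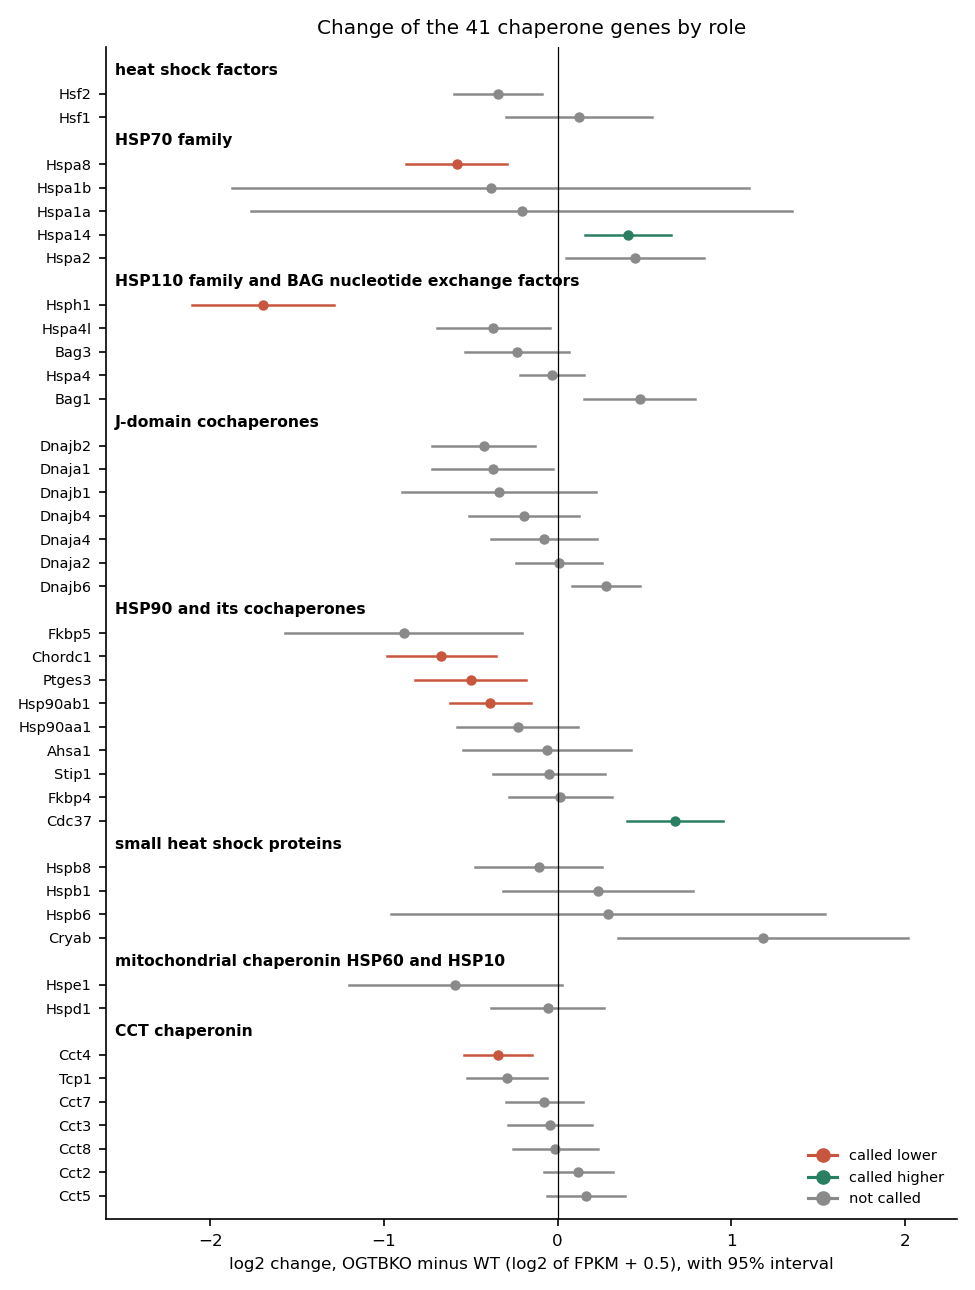
Log2 difference (OGTBKO minus WT, log2 of FPKM + 0.5) of each of the 41 genes, sorted within role, with points for the limma estimate and lines for its 95% interval (n = 4 per group). Hsph1 at -1.70 lies apart from the other genes called lower, which lie between -0.67 and -0.34, and the intervals of Hspa1a, Hspa1b and Hspb6 are the widest.

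Expression was concentrated in a few genes. Hsp90ab1, the constitutive cytosolic HSP90, had the highest mean level, followed by Hspd1, Hspa8, Bag1, Hsp90aa1 and Hspe1, and Hspa2 had the lowest. Summed over the 41 genes, the level lay between 1465 and 1784 FPKM in WT and between 1408 and 1549 FPKM in OGTBKO, ranges that overlap. WT 3 gave the lowest WT value for 20 of the 41 genes, and in OGTBKO library 4 gave the highest value for 21 genes and library 2 the lowest for 19. WT 3 also had the highest share of reads in mitochondrial genes, 39.4%, against 25.2% to 32.2% in the other libraries.

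Neither heat shock factor was called. Hsf1, the master activator of the heat shock response, stood at 3.05, 1.56, 1.46 and 2.27 FPKM in WT and at 2.32, 2.28, 2.38 and 1.96 FPKM in OGTBKO. The OGTBKO values fell inside the WT range, and the log2 difference was 0.12 ± 0.19 (limma adjusted p = 0.697; 95% interval -0.30 to 0.54). Hsf2, a related factor active in development and in prolonged proteotoxic stress, stood at 1.93, 1.55, 1.59 and 1.65 FPKM in WT and at 1.24, 1.12, 1.15 and 1.35 FPKM in OGTBKO. Every OGTBKO value of Hsf2 was below every WT value, yet the log2 difference of -0.34 ± 0.11 missed the threshold (limma adjusted p = 0.0672), and it was 0.05 once each library's trend with GC content and length was removed (called correction for GC content and length in what follows). Of 3 other genes of the HSF family and its regulators that were tested, Hikeshi, which carries HSP70 into the nucleus during heat shock, was called lower, from a mean of 4.82 to 3.23 FPKM (log2 -0.51 ± 0.10, limma adjusted p = 0.0160). That call was lost without WT 2 (adjusted p = 0.0507) or OGTBKO 3 (adjusted p = 0.0501), and with scaling by total reads.

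The promoters of these genes can be searched for the sequence that HSF1 binds. RefSeq windows (GRCm38.p6, 250 bases before to 50 bases after an annotated start) were matched for 35 of the 41 genes and searched on both strands for a heat shock element of 3 alternating units separated by 2 bases, GAANNTTCNNGAA or TTCNNGAANNTTC. At least 1 such element was present for 5 of the 35 genes, or 14.3%, against 0.662% of the 27025 genes with a window. A shorter form of 2 units, GAANNTTC or TTCNNGAA, which the longer form contains, was present for 18 of the 35, or 51.4%, against 17.0% of all genes with a window. The 5 genes with the longer element are given as 30 bases each, 5′ to 3′ on the gene's own strand, because they include the set's lowest log2 difference (Hsph1) as well as genes that were not called; capitals mark the bases covered by elements. The positions are chr5:149636287-149636316 on the minus strand for Hsph1, chr9:18292260-18292289 on the plus strand for Chordc1 and chr5:29735844-29735873 on the plus strand for Dnajb6. The pair Hspd1 (minus strand) and Hspe1 (plus strand) share one site, chr1:55088053-55088082, read on opposite strands.
Hsph1: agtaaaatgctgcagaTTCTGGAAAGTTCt
Chordc1: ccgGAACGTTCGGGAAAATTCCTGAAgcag
Dnajb6: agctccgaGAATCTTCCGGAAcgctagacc
Hspd1: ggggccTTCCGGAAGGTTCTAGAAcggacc
Hspe1: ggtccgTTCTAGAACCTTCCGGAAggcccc

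GENCODE places all of these stretches in exons: those of Hsph1, Chordc1 and Dnajb6 in a 5′ exon that is untranslated there, and the shared site in an untranslated stretch of an Hspd1 exon. The Dnajb6 stretch also lies in a coding exon of Gm5129 on the opposite strand, a gene listed at 0 in every library. Bases are counted from a RefSeq start as base 1; where a gene has 2 such starts, the upstream one was used for Hsph1 and Dnajb6 and the downstream one for Hspd1. The Hsph1 element covered bases 37 to 49 and the Chordc1 bases -4 to 19, where 3 overlapping elements run together. The Dnajb6 element covered bases -46 to -34. The shared site held 2 overlapping elements, at bases -89 to -72 for Hspe1 and at bases -144 to -127 for Hspd1. Of the 5 genes, Hsph1 and Chordc1 were called lower and Hspd1, Hspe1 and Dnajb6 were not called. Their log2 differences ran from -1.70 to 0.28 with a median of -0.59, beside -0.07 for the 30 genes with a window and no such element. Of those 30, 1 was called lower and 2 higher. Only exact matches were counted, so elements that depart from the pattern would be missed. The 30 include the heat-inducible Hspa1a, Hspa1b and Dnajb1, so they cannot be taken as genes without a site for HSF1. The 6 genes without a matched window were Hsf1, Hspa8, Hsp90aa1, Hsp90ab1, Cryab and Cct4. Their median was -0.29 and 3 of them were called lower, so most of the genes called lower are not covered by those with the element. Whether the element goes with the direction of change was not tested. Among all tested genes with a window, 55 held the element, with a median log2 difference of -0.06, and 4 of them were called lower and 5 higher. These are 7.27% and 9.09%, beside 7.62% and 8.52% of the 9228 genes without it. The 4 called lower include Hsph1 and Chordc1. A match in these letters is no evidence that a factor was bound.

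In the HSP70 family 1 of 5 genes was called lower and 1 higher. Hspa8 (chr9:40800984-40810087), which encodes HSC70, the constitutive cytosolic HSP70, stood at 219, 221, 235 and 308 FPKM in WT and at 161, 161, 170 and 158 FPKM in OGTBKO. All 4 OGTBKO values were below all 4 WT values, WT 4 being the highest of the 8, and the log2 difference was -0.58 ± 0.13 (limma adjusted p = 0.0206), a WT mean 1.51 times that of OGTBKO. The call was lost when OGTBKO 2, OGTBKO 3 or OGTBKO 4 was left out and with scaling by total reads (adjusted p = 0.130). Hspa14 (chr2:3488850-3512814), an HSP70-like protein that works at the ribosome, stood at 5.17, 5.06, 4.82 and 5.46 FPKM in WT and at 5.67, 7.01, 7.54 and 7.74 FPKM in OGTBKO. The groups did not overlap, and Hspa14 was called higher with a log2 difference of 0.40 ± 0.11 (limma adjusted p = 0.0396), but of the 8 fits that leave out a library, only that without OGTBKO 1 kept the call. An overlapping gene model on the same strand shares 321 exon bases with Hspa14, so its reads may be split. Hspa2, an HSP70 gene best known from the testis, had the lowest level of the set, 0.573 to 1.32 FPKM in WT and 1.22 to 1.59 FPKM in OGTBKO, and was not called (log2 0.45, adjusted p = 0.114).

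Hspa1a and Hspa1b, the inducible HSP70 twins and the textbook readout of heat shock, varied more within each group than between them. Hspa1b stood at 1.21, 8.45, 9.50 and 3.14 FPKM in WT and at 1.22, 3.01, 2.48 and 10.1 FPKM in OGTBKO (log2 -0.39 ± 0.66, limma adjusted p = 0.730). Hspa1a stood at 0.292, 3.53, 4.71 and 1.01 FPKM in WT and at 0.534, 1.72, 0.600 and 5.11 FPKM in OGTBKO (log2 -0.21 ± 0.69, limma adjusted p = 0.867). WT 2, WT 3 and OGTBKO 4 were the high libraries for both genes, and WT 1 and OGTBKO 1 the low ones. The 95% interval for Hspa1b, -1.87 to 1.10 on the log2 scale, does not settle a direction. The pair sit on chromosome 17 and are near copies, also upstream: of the 150 bases before each start, chr17:34972157-34972306 for Hspa1a and chr17:34959239-34959388 for Hspa1b on the minus strand, 149 were identical, or 99.3%. They are printed to show how alike these stretches are, with capitals on the 2-unit element at bases -104 to -97. These bases lie before the annotated starts and say nothing about how reads were shared.
Hspa1a: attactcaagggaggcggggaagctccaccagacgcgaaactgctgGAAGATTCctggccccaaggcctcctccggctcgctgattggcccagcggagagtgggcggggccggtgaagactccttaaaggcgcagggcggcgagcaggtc
Hspa1b: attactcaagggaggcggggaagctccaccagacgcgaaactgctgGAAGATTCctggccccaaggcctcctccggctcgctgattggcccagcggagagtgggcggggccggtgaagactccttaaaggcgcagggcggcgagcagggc

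How reads that fit both copies were counted is not given in the sources used here, so the split between the twins, with Hspa1b 1.76 to 4.15 times Hspa1a over the 8 libraries, is uncertain. The same holds for other chaperone genes with many retrocopies in the mouse genome, such as Hspa8, Hsp90ab1 and Hspe1.

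**Figure D2:**
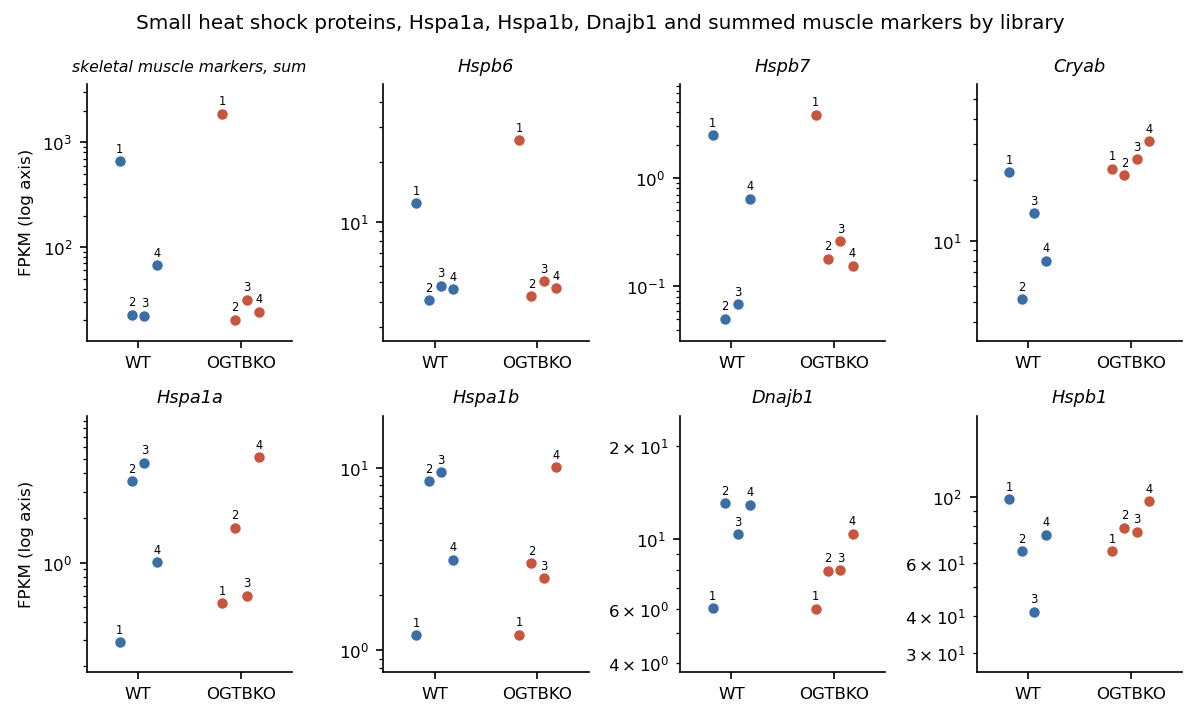
Level in each library (log axis, FPKM) of the summed skeletal muscle markers, of 4 small heat shock protein genes (Hspb6, Hspb7, Cryab, Hspb1) and of the heat-inducible genes Hspa1a, Hspa1b and Dnajb1; points are libraries, numbered as in the text. Hspb6 and Hspb7 were high in WT 1 and OGTBKO 1, the libraries with 659 and 1873 FPKM of muscle markers, and Hspa1a and Hspa1b were low in the same libraries.

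Among the exchange factors, Hsph1 changed most of all 41 genes. It encodes HSP105, the heat-inducible HSP110, which releases ADP from HSP70 and works with J-domain proteins to pull aggregates apart, and lies at chr5:149614287-149636376. Its level was 10.9, 15.5, 10.9 and 16.2 FPKM in WT and 3.38, 2.86, 4.65 and 4.20 FPKM in OGTBKO. The highest OGTBKO value was well below the lowest WT value, and the log2 difference was -1.70 ± 0.18 (limma adjusted p = 0.00236; 95% interval -2.10 to -1.29), a WT mean 3.55 times that of OGTBKO. Hsph1 was called under all 19 alternatives, with log2 differences between -1.83 and -1.58. Without both libraries numbered 1, which held muscle RNA, it was -1.74.

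None of the other 4 exchange factors was called. Hspa4, the constitutive HSP110 relative, stood at 30.3 to 33.3 FPKM in WT and 29.9 to 31.2 FPKM in OGTBKO, with a 95% interval of -0.22 to 0.15 around a log2 difference of -0.03. Hspa4l, a further HSP110 family gene, had a log2 difference of -0.37 with overlapping groups (limma adjusted p = 0.113). Bag1, which couples HSP70 to the proteasome, stood at 112, 108, 150 and 105 FPKM in WT and at 176, 140, 163 and 176 FPKM in OGTBKO. WT 3 overlapped the OGTBKO range, and the log2 difference of 0.47 ± 0.14 just missed the threshold (adjusted p = 0.0536). Bag1 was called higher without WT 3, with scaling by total reads, with library quality weights and from recovered reads. Bag3, which with Hspb8 steers damaged protein to autophagy, had a log2 difference of -0.23 (adjusted p = 0.251). The ratios of Hspa8 to Hsph1 and to Bag1, taken from FPKM in each library, did not overlap between the groups. They are made of genes whose differences are given above and add no separate result. The other ratios taken, Hspa1b to Hspa1a, Hsp90ab1 to Hsp90aa1, Hspd1 to Hspe1 and Dnaja1 to Hspa8, overlapped. Hspa8 was 14.2 to 21.6 times Hsph1 in WT and 36.5 to 56.3 times in OGTBKO, and 1.57 to 2.94 times Bag1 in WT and 0.899 to 1.15 times in OGTBKO.

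None of the 7 J-domain genes was called. Dnajb2, a J-domain protein with ubiquitin-binding motifs, had the smallest p of the group and stood at 8.91, 10.1, 6.82 and 9.85 FPKM in WT and at 6.78, 5.80, 6.24 and 7.00 FPKM in OGTBKO. WT 3 lay within the OGTBKO range, and the log2 difference was -0.42 ± 0.13 (limma adjusted p = 0.0571), and it was called without WT 3 and after correction for GC content and length. Dnajb6, which suppresses aggregation of glutamine-rich proteins, was the only J-domain gene whose groups did not overlap, at 9.22 to 10.4 FPKM in WT and 11.4 to 12.8 FPKM in OGTBKO (log2 0.28, adjusted p = 0.0600). Dnajb1, the heat-inducible partner of HSP70, ranged from 6.01 to 13.1 FPKM in WT and from 5.99 to 10.4 FPKM in OGTBKO (log2 -0.34, adjusted p = 0.382), and it was lowest in WT 1 and OGTBKO 1 within their groups. The other 4 had log2 differences of -0.38 (Dnaja1, adjusted p = 0.130), -0.20 (Dnajb4), -0.08 (Dnaja4) and 0.01 (Dnaja2). Dnaja1 and Dnaja4 share 608 and 1581 exon bases with genes on the opposite strand, and strand use in counting is not given in the sources used here.

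HSP90 and its cochaperones held 4 of the 8 calls, 3 lower and 1 higher. Called genes were 44.4% of these 9, beside 15.6% of all genes tested. Nothing is read from this count, as the selection used this contrast. Hsp90ab1 (chr17:45567775-45573271) stood at 309, 289, 268 and 310 FPKM in WT and at 230, 226, 206 and 235 FPKM in OGTBKO. The groups were apart, and the log2 difference was -0.39 ± 0.10 (limma adjusted p = 0.0362), a WT mean 1.31 times that of OGTBKO. Of the 8 fits that leave out a library, only that without WT 3 kept the call, and scaling by total reads gave a log2 difference of -0.27 (adjusted p = 0.295). The Hsp90ab1 call was also lost without both libraries numbered 1 and when lowly expressed genes were kept. Hsp90aa1, the stress-inducible HSP90, stood at 116, 120, 76.7 and 116 FPKM in WT and at 93.0, 89.1, 80.2 and 97.3 FPKM in OGTBKO. WT 3 lay below every OGTBKO library and the other 3 WT libraries above all of them. With all 8 libraries the log2 difference was -0.23 ± 0.16 (adjusted p = 0.338), and without WT 3 it was -0.38 (adjusted p = 0.0385).

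Among the cochaperones, Cdc37 rose. CDC37 brings protein kinases to HSP90, and its gene (chr9:21133222-21149982) stood at 4.39, 3.90, 4.70 and 5.42 FPKM in WT and at 8.71, 6.52, 7.85 and 7.55 FPKM in OGTBKO. Every OGTBKO value exceeded every WT value, with a log2 difference of 0.68 ± 0.12 (limma adjusted p = 0.0109) and an OGTBKO mean 1.66 times that of WT. Like Hsph1, Cdc37 was called under all 19 alternatives, with log2 differences between 0.60 and 0.78. Chordc1 (chr9:18292125-18317442), which encodes the HSP90 partner morgana and carries the run of 3 elements printed above, stood at 10.2, 12.4, 8.05 and 11.1 FPKM in WT and at 5.57, 5.97, 7.15 and 6.62 FPKM in OGTBKO. The groups did not overlap, and the log2 difference was -0.67 ± 0.14 (adjusted p = 0.0169). Its call was lost without WT 2 and with scaling by total reads, and the log2 difference was -0.29 (adjusted p = 0.253) after correction for GC content and length. The GC content of its transcript is 35.7%, beside a median of 49.4% over the genes tested.

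Ptges3 (chr10:128058954-128077272) encodes p23, which steadies the closed, ATP-bound form of HSP90. It stood at 40.6, 34.1, 32.1 and 30.9 FPKM in WT and at 20.3, 24.4, 22.4 and 30.2 FPKM in OGTBKO. OGTBKO 4 almost reached the lowest WT library. Ptges3 was called lower with a log2 difference of -0.50 ± 0.14 (limma adjusted p = 0.0439), but without any 1 of the 4 WT libraries or of OGTBKO 1, 2 and 3 the call was lost. The Ptges3 call was also lost without both libraries numbered 1 and with scaling by total reads. Fkbp5, an HSP90-bound immunophilin that is also a classic glucocorticoid target, stood at 3.97, 1.35, 1.04 and 1.47 FPKM in WT and at 0.926, 0.610, 0.611 and 0.713 FPKM in OGTBKO. The groups were apart and WT 1 was far above the rest, with a log2 difference of -0.89 ± 0.30 (adjusted p = 0.0764). Without both libraries numbered 1 it was -0.63 (adjusted p = 0.0446). All 11 glucocorticoid-induced genes listed for comparison had log2 differences below 0 (median -0.40). Of them 2 were called, or 18.2% beside 15.6% of all genes tested, and 9 were not. Those called were Pdk4, a brake on glucose oxidation, at -0.82 ± 0.15 (adjusted p = 0.0119) and Per1 at -0.83 (adjusted p = 0.0480). Whether glucocorticoid signalling differed was not tested.

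The other cochaperones of HSP90 overlapped between the groups. Fkbp4, the other steroid receptor immunophilin, had a log2 difference of 0.01 (adjusted p = 0.954), Stip1, which hands clients from HSP70 to HSP90, -0.05 (adjusted p = 0.848), and Ahsa1, which speeds HSP90's ATPase, -0.06 (adjusted p = 0.874). Their 95% intervals ran from -0.28 to 0.31, from -0.37 to 0.27 and from -0.54 to 0.42.

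**Figure D3:**
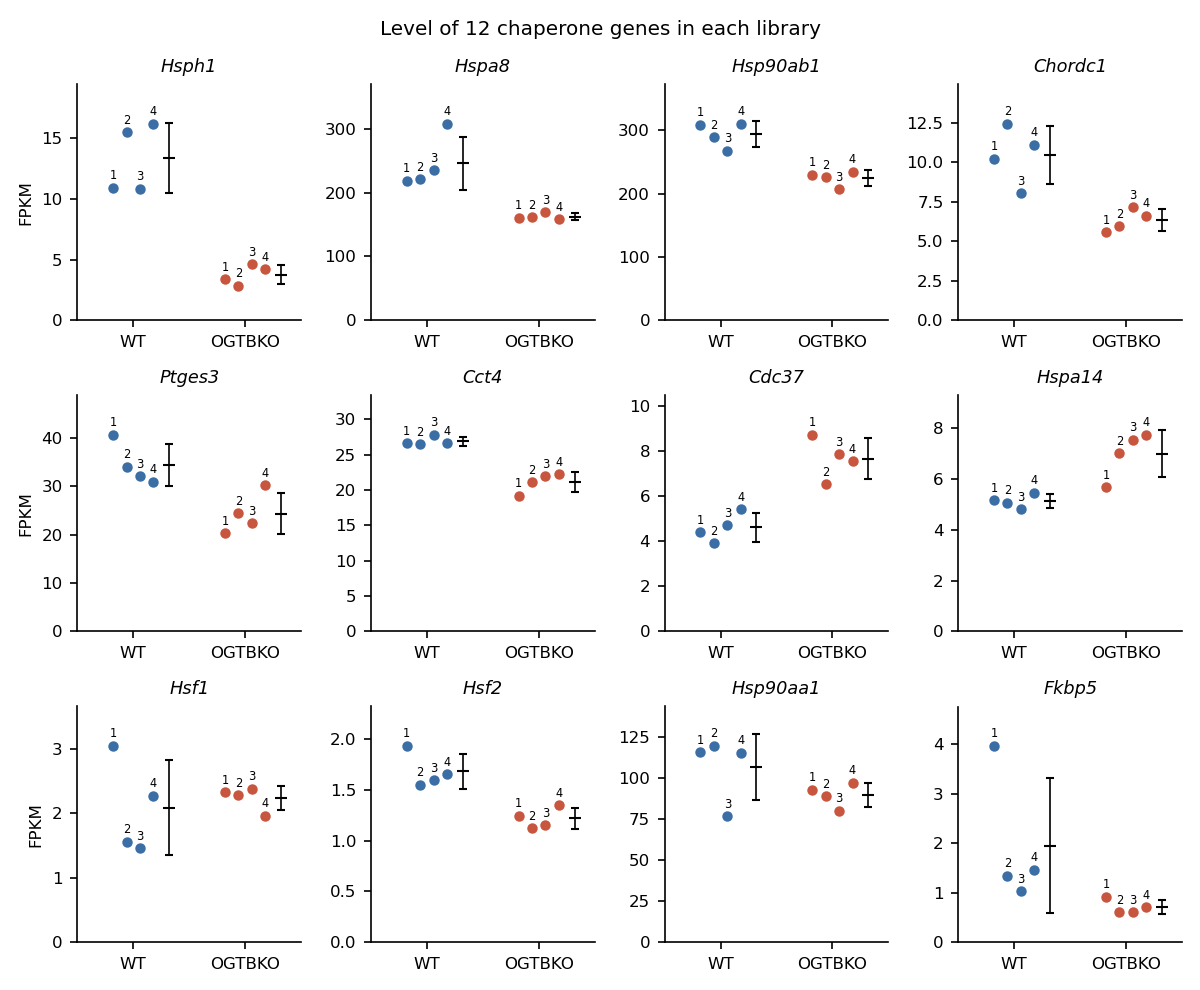
FPKM in each library of the 8 called genes and of Hsf1, Hsf2, Hsp90aa1 and Fkbp5; numbered points are libraries, and the bar beside each group is its mean with SD (n = 4), on axes that start at 0. Hsph1 lies between 2.86 and 4.65 FPKM in OGTBKO and between 10.9 and 16.2 FPKM in WT, while OGTBKO 4 for Ptges3 and WT 3 for Hsp90aa1 lie apart from their groups.

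No small heat shock protein was called. Cryab (chr9:50751325-50756636), the alpha B-crystallin that protects the cytoskeleton of muscle and lens, stood at 21.8, 5.15, 13.7 and 7.98 FPKM in WT and at 22.7, 21.0, 25.3 and 31.0 FPKM in OGTBKO. WT 1 alone reached the OGTBKO range. The log2 difference was 1.18 ± 0.37 (limma adjusted p = 0.0590), the largest rise in the set by size and short of the threshold; it was 1.52 without WT 1 (adjusted p = 0.0156) and 1.56 without both libraries numbered 1 (adjusted p = 0.0267). The 95% interval was wide, 0.35 to 2.02. Hspb6, a small heat shock protein of skeletal, cardiac and smooth muscle, stood at 12.5, 4.07, 4.81 and 4.60 FPKM in WT and at 25.7, 4.27, 5.06 and 4.69 FPKM in OGTBKO. It was high only in WT 1 and OGTBKO 1, the libraries with muscle markers, and lay between 4.07 and 5.06 FPKM in the other 6 libraries. Hspb7, a muscle gene outside the 41, had the same pattern with 2.45 FPKM in WT 1 and 3.78 FPKM in OGTBKO 1 against 0.0505 to 0.641 FPKM elsewhere. Hspb1, the widely expressed HSP27, ranged from 41.2 to 98.4 FPKM in WT and from 65.6 to 96.9 FPKM in OGTBKO (log2 0.23, adjusted p = 0.546). Hspb8, the partner of Bag3, had a log2 difference of -0.11 (adjusted p = 0.685).

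Hspe1 and Hspd1, which encode the lid and the barrel of the mitochondrial chaperonin, are divergent neighbours, start near one another and share the element printed above. Hspe1 stood at 102, 123, 46.5 and 110 FPKM in WT and at 55.4, 62.1, 55.5 and 65.2 FPKM in OGTBKO. WT 3 was the lowest of the 8 libraries and the other 3 WT libraries the highest, so the log2 difference of -0.59 ± 0.27 was not called (limma adjusted p = 0.168); without WT 3 it was -0.90 (adjusted p = 0.00548). Hspd1 stood at 213, 261, 168 and 246 FPKM in WT and at 210, 212, 205 and 214 FPKM in OGTBKO, with a log2 difference of -0.06 ± 0.14 (adjusted p = 0.818). The ratio of Hspd1 to Hspe1 was 2.09 to 2.24 in WT 1, 2 and 4, 3.61 in WT 3, and 3.29 to 3.79 in OGTBKO. The annotated exons of the pair overlap by 112 bases on opposite strands. Of 14 other mitochondrial chaperones and proteases, 2 were called lower (Yme1l1 and Clpb) and 1 higher (Htra2). Called genes were 21.4% of this list, beside 15.6% of all genes tested.

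Of the 7 CCT subunits 1 was called. Cct4 (chr11:22990519-23003780) was lower, at 26.6, 26.5, 27.8 and 26.6 FPKM in WT and 19.2, 21.1, 22.0 and 22.2 FPKM in OGTBKO. The groups were tight and apart, with a log2 difference of -0.34 ± 0.09 (limma adjusted p = 0.0307), a WT mean 1.27 times that of OGTBKO. The call was lost when WT 2, WT 4 or any of the OGTBKO libraries was left out, and also with scaling by total reads or correction for GC content and length. The Cct4 call was lost without both libraries numbered 1 too. Tcp1, the first CCT subunit described, stood at 37.1, 38.8, 35.6 and 35.4 FPKM in WT and at 27.8, 28.1, 29.0 and 35.1 FPKM in OGTBKO (log2 -0.29 ± 0.10, adjusted p = 0.0826). OGTBKO 4 was at the edge of the WT range and the other 3 OGTBKO libraries well below it; Tcp1 shares 571 and 141 exon bases with genes on the opposite strand. The other 5 subunits had log2 differences of 0.16 (Cct5), 0.12 (Cct2), -0.01 (Cct8), -0.04 (Cct3) and -0.08 (Cct7), with adjusted p between 0.282 and 0.944. The median over the 7 was -0.04, and it was 0.07 both with scaling by total reads and after correction for GC content and length. Over all genes tested the median was 0.09 and 0.01 under these 2 settings. Cct6a, a subunit outside the 41, went from a mean of 26.2 to 21.8 FPKM without a call (log2 -0.26, adjusted p = 0.0934).

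Among the remaining genes of the same machinery 4 were called lower and 10 higher. These 62 genes in 6 lists were drawn up from textbook roles with earlier results of these data known; 53 were tested, with a median log2 difference of 0.13. The 14 called genes made up 26.4% of them, beside 15.6% of all genes tested, of which 7.46% were called lower and 8.11% higher; the same shares are the background for each list that follows. The 12 genes of the remaining CCT subunits, prefoldin (which delivers actin and tubulin to CCT) and phosducin-like proteins held 4 of the genes called higher, 3 of them prefoldin subunits, and 1 of those called lower, also a prefoldin subunit. Pfdn1 stood at 11.9, 6.49, 9.21 and 7.67 FPKM in WT and at 22.8, 16.8, 22.6 and 21.7 FPKM in OGTBKO (log2 1.23 ± 0.18, limma adjusted p = 0.00580). Pfdn5 went from a mean of 13.4 to 26.1 FPKM (log2 0.96, adjusted p = 0.00726) and Pfdn2 from 2.89 to 5.57 FPKM (log2 0.84, adjusted p = 0.00872). Pfdn1, Pfdn2 and Pfdn5 were called under all 19 alternatives. Vbp1, named after its values were seen, went from a mean of 9.24 to 6.69 FPKM (log2 -0.44, adjusted p = 0.0498), and of the 8 fits that leave out a library, only that without OGTBKO 4 kept its call. The other prefoldin subunits, Pfdn4 and Pfdn6, were not called (log2 0.14 and 0.09).

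Of 17 further HSP90 cochaperone genes, 3 were called higher and 1 lower. Ruvbl2, an ATPase of the R2TP complex that works with HSP90 in assembling large complexes, stood at 7.33, 6.93, 6.48 and 8.43 FPKM in WT and at 14.4, 13.1, 18.8 and 16.5 FPKM in OGTBKO (log2 1.05 ± 0.13, limma adjusted p = 0.00380). Ppp5c, a phosphatase that docks on HSP90, went from a mean of 13.3 to 18.9 FPKM (log2 0.49, adjusted p = 0.0143). Nudc was called higher too (11.3 to 17.2 FPKM, log2 0.56, adjusted p = 0.0432). The gene called lower was Cdc37l1 (7.22 to 5.34 FPKM, log2 -0.40, adjusted p = 0.0276). Ruvbl2 was called under all 19 alternatives, and Ppp5c under all but the correction for GC content and length (adjusted p = 0.0701). Of 11 further J-domain genes, Dnajc9, a histone-binding J-domain protein, was called higher (2.61 to 4.79 FPKM, log2 0.77, adjusted p = 0.00724), as was the splicing-associated Dnajc8 (9.11 to 13.3 FPKM, log2 0.53, adjusted p = 0.0110). Both calls were made under all 19 alternatives. Of 9 further HSP70 genes and cochaperones, Bag4 was called lower under all 19 alternatives (5.73 to 3.46 FPKM, log2 -0.66, adjusted p = 0.0107) and Bag5 higher (log2 0.41, adjusted p = 0.0264), the latter lost without WT 2 or any OGTBKO library.

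**Figure D4:**
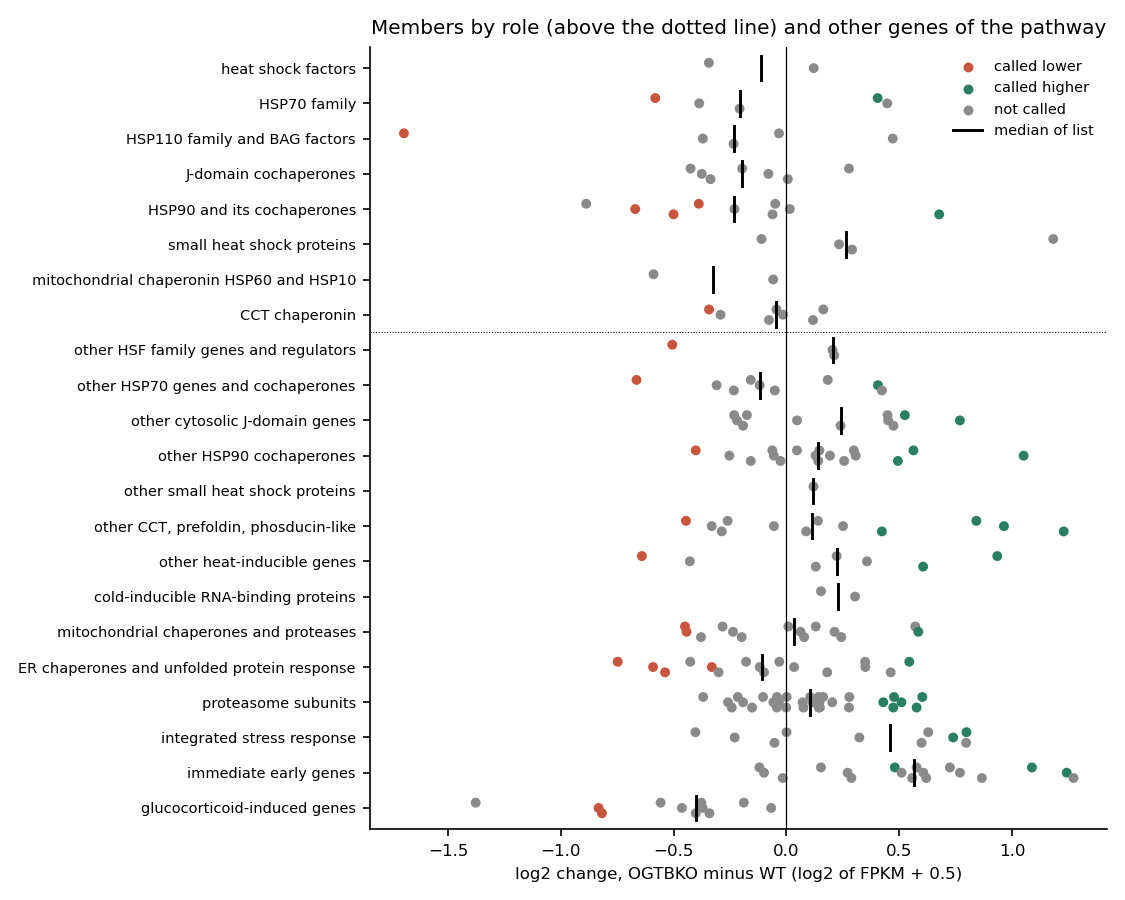
Log2 difference (OGTBKO minus WT, log2 of FPKM + 0.5) of each tested gene by list, with the 41 genes by role above the dotted line and the comparison lists below it; each point is a gene and the black bar the median of its list. The 53 further cytosolic chaperone genes have a median of 0.13 and the 41 genes one of -0.08.

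Other genes that heat raises were called in both directions. Of 7 tested, Ubb, which encodes polyubiquitin, was called higher at 83.0, 62.8, 73.6 and 68.6 FPKM in WT and 170, 123, 129 and 132 FPKM in OGTBKO (log2 0.94 ± 0.14, limma adjusted p = 0.00552). Ier5, an HSF1 target that also acts on HSF1, was called higher too (1.96 to 3.26 FPKM, log2 0.61, adjusted p = 0.00844). Dedd2 was called lower (log2 -0.64, adjusted p = 0.0298), a call lost without WT 2, WT 4, OGTBKO 2, OGTBKO 3 or OGTBKO 4. The cold-inducible RNA-binding protein genes Cirbp and Rbm3 were not called, with log2 differences of 0.30 (adjusted p = 0.0903) and 0.15 (adjusted p = 0.520). In the endoplasmic reticulum list 4 of 16 genes were called lower and 1 higher. Hsp90b1, the HSP90 of that compartment, went from a mean of 38.6 to 26.3 FPKM (log2 -0.54 ± 0.10, adjusted p = 0.0115), a call lost with scaling by total reads (adjusted p = 0.115) and after correction for GC content and length (adjusted p = 0.0533). Among 31 proteasome subunits 6 were called higher and 0 lower; Psmb7 went from 14.4 to 22.1 FPKM (log2 0.60, adjusted p = 0.0113). Of 10 genes of the integrated stress response 2 were called higher and 0 lower, and of 18 immediate early genes 3 were called higher and 0 lower. Called genes were 20% and 16.7% of these lists, beside 15.6% of all genes tested.

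Base composition ran with the direction of change across all genes and across the 41. Split into 4 bins by GC content, the lowest bin of 3290 tested genes held 581 called lower and 84 higher, and the highest bin of 3291 held 65 called lower and 456 higher. Of the 41 genes, 10 fell in the lowest bin, with 2 called lower (Chordc1 and Ptges3) and 0 higher. In the next bin were 11 genes with 3 called lower (Hspa8, Hsph1 and Cct4) and 1 higher (Hspa14). The bin after that held 11 with 1 called lower (Hsp90ab1) and 1 higher (Cdc37), and the highest held 9 with 0 called. Removing each library's trend with GC content and length left 5 of the 41 called lower and 2 higher. Chordc1 and Cct4 lost their calls, Dnajb2 gained one, and Hsph1 stayed at a log2 difference of -1.60 (limma adjusted p = 0.00407) and Cdc37 at 0.72 (adjusted p = 0.0106).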

How the data were processed

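Total RNA from brown adipose tissue was sequenced in 8 libraries, 4 per group. Per the submitters' processing notes, HISAT2 2.0.5, featureCounts 1.5.0-p3 and the mm10 build were used; the use of strand and of reads with several matches is not given in the sources used here. The authors deposited 1 table of FPKM values per gene and library. With the gene lengths in the table, 100% of values came out as whole reads (tolerance 0.001), but the deposited scaling is not by total reads: its denominator was 0.790 (WT 3) to 1.13 (OGTBKO 3) times the library's reads in genes.

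Genes with a mean of at least 0.5 FPKM were tested with limma 3.58.1 (R 4.3.3) on log2(FPKM + 0.5), with a mean-variance trend, two-sided, and Benjamini-Hochberg adjustment over all 13171 genes. Reading and summaries used Python 3.11.15 and pandas 2.3.3. The members and all gene lists were chosen with earlier results of these data known. Full values are given for Hsf1, Hsf2, Hspa1a, Hspa1b, Hspa8, Hsp90aa1 and Hsp90ab1, for each called member whose groups did not overlap, and for the member with the smallest p in a role group without one; other lists are named by up to 4 genes of smallest p. Other genes given in full were chosen after their values were seen. The fit was tested on simulated data. Alternatives were other pseudocounts and filters, scaling by total reads, removal of each library's trend with GC content and length, no variance trend, library quality weights, voom on recovered reads, a replicate block, each library left out, and, chosen after seeing the data, both libraries numbered 1 left out. No 2 libraries agreed within sampling noise. Promoters are RefSeq GRCm38.p6 windows, and exon annotation is GENCODE M21.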

Additional observations from a re-analysis of the deposited data

Results flagged for a closer look

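In 82 groups of 4 values (41 genes in WT and in OGTBKO), 8 held a library far from the other 3; by chance about 1 in 20 groups would. In WT 3, Bag1 was high at 150 FPKM (the others 105 to 112), Cct4 was high at 27.8 FPKM (the others 26.5 to 26.6) and Hsp90aa1 was low at 76.7 FPKM (the others 116 to 120). In WT 1, Fkbp5 was high at 3.97 FPKM (the others 1.04 to 1.47) and Hspb6 was high at 12.5 FPKM (the others 4.07 to 4.81). In OGTBKO 1, Hspb6 was high at 25.7 FPKM (the others 4.27 to 5.06) and Cct8 was low at 26.0 FPKM (the others 29.9 to 30.2). In OGTBKO 4, Tcp1 was high at 35.1 FPKM (the others 27.8 to 29.0).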

How the results depend on the processing

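Of the 41 genes, 6 were called lower and 2 higher. Scaling by total reads gave 1 lower, and library quality weights gave 12 lower and 6 higher. The share of all genes called moved too, from 15.6% to 9.37% with scaling by total reads and to 26.7% with library quality weights. Voom on recovered reads gave 4 higher, and having no filter on low values or no mean-variance trend gave 1 higher each. In these 3 fits 17.6%, 4.58% and 14.3% of all genes were called. Leaving out 1 library gave 2 to 9 lower and 1 to 3 higher, the 9 without WT 3. Of all genes, between 5.26% (without OGTBKO 3) and 16.1% (without WT 3) were called in those fits. For the 62 other cytosolic chaperone genes, 4 called lower became 1 with scaling by total reads, 8 with library quality weights, and 1 to 4 with 1 library left out. Hsph1 and Cdc37 kept direction and call under all 19 alternatives, and none of the 8 called genes changed direction under any of them.

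Deviations of same-numbered libraries correlated at 0.220, 0.169, 0.0143 and -0.00696, and those of differently numbered libraries at up to 0.125. Not every library correlated best with its own number. The values for libraries 1 and 2 were the highest of all pairs, so the check cannot settle whether the replicate numbers pair the samples. With the number as a replicate block, 1 of the 41 genes was called lower (Hsph1) and 1 higher (Cdc37), and 1 of the other cytosolic chaperone genes lower. That fit called 6.74% of all genes.

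Depth was low for Hspa1a, with 12 to 211 reads per library, and for Hspa2, with 21 to 69. No median of the other small heat shock protein list, which held only Hspb7, could be given with a minimum mean of 1 FPKM or without both libraries numbered 1.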
